A study of Mus musculus with 4 samples.

Results

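The toll-like receptors, the co-receptor gene Cd14 and the adaptor gene Myd88 were examined in LSK cells of mouse bone marrow, which are negative for lineage markers and positive for cKit and Sca1 and include blood stem cells and multipotent progenitors. The 10 genes were Tlr1, Tlr2, Tlr3, Tlr4, Tlr5, Tlr6, Tlr7, Tlr9, Cd14 and Myd88, out of 18193 genes measured. They were found by their symbol in the probe annotation, which gave 16 of the 34945 probe sets that name a single gene. Where a gene had several probe sets, the one with the highest mean log2 intensity over the 4 arrays stood for it, and the others are given beside it. The Ncstn KO mice were Ncstn flox/flox Mx1-cre+ and the WT mice were Ncstn flox/flox littermates without the transgene, so both groups carried the floxed alleles. Ncstn encodes nicastrin, without which gamma-secretase cannot cut Notch receptors. Both groups received polyIC, a synthetic double-stranded RNA, at 20 µg per g of body weight in 3 injections from 14 days of age, and LSK cells were sorted 4 weeks after injection from mice aged 6 weeks. Each group held 2 Affymetrix arrays, replicate 1 from a female and replicate 2 from a male in Ncstn KO, and replicate 1 from a male and replicate 2 from a female in WT. Mx1-cre is a recombinase gene driven by an interferon-responsive promoter that is active in many cell types. Only the Ncstn KO mice carried it, so loss of Ncstn and presence of the transgene cannot be told apart.

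Toll-like receptors recognise conserved molecules of microbes. Tlr1, Tlr2, Tlr4, Tlr5 and Tlr6 act at the cell surface on lipopeptides, lipopolysaccharide or flagellin, whereas Tlr3, Tlr7 and Tlr9 act inside endosomes on double-stranded RNA, single-stranded RNA and unmethylated DNA. All of them except Tlr3 signal through the adaptor Myd88, and Tlr3 signals through the adaptor Ticam1. Hematopoietic stem and progenitor cells are known to express several of these receptors, and their ligands, polyIC among them, are known to bring such cells into cycle and towards myeloid output. Tlr3 is thus of particular interest here as a receptor for the injected compound.

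RefSeq promoter windows of GRCm38.p6, running from 250 bases before to 50 bases after a transcript start, matched 7 of the 10 genes in 9 windows, since Tlr1 and Tlr6 had 2 each. These windows are shown for Tlr3 as the polyIC receptor, for Myd88 and Tlr6 as carriers of an interferon-type motif, and for Tlr2 as one of the genes with the largest differences. All 4 lie on the minus strand and are written 5′ to 3′ on the strand of the gene, with matches to the motifs named below in capitals:
Tlr3, chr8:45410331-45410630: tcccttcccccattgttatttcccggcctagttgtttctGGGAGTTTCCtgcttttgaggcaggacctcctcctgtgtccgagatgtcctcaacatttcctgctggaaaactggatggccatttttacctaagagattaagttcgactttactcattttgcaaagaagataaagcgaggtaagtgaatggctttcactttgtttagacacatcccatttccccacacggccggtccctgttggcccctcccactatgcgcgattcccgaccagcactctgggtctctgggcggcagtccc
Myd88, chr9:119339969-119340268: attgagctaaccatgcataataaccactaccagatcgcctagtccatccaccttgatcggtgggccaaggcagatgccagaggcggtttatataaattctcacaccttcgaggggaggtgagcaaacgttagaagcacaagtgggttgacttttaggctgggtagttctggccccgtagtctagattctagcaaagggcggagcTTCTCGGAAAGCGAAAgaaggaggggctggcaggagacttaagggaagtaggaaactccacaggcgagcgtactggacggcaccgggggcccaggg
Tlr6, chr5:64959117-64959416: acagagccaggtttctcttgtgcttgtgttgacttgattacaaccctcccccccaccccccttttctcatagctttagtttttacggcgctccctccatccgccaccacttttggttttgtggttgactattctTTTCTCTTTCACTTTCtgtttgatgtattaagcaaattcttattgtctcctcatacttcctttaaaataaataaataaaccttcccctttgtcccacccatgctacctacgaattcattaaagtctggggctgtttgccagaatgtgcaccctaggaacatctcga
Tlr2, chr3:83841559-83841858: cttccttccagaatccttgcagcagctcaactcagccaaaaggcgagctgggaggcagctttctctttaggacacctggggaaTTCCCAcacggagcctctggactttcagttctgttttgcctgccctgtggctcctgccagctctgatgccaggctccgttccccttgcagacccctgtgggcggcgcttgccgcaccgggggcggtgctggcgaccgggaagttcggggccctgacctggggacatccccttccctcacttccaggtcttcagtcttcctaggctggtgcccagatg

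The motifs searched, on both strands, were the core of interferon-stimulated response elements (GAAA, any 2 bases, GAAA), that of gamma-activated sites (TTCNNNGAA), that of Spi1 sites (GAGGAA), that of Rbpj sites (TGGGAA; Rbpj is the nuclear partner of Notch) and that of NF-kappaB sites (GGGA, any base, TTTCC). In the Tlr3 window the capitals mark a single match, to the NF-kappaB core, that begins 211 bases before the start; this core occurred in 0.411% of the 32851 mouse windows. The Myd88 window held a match to the interferon core 40 bases before the start that overlapped a match to the gamma-activated core beginning 46 bases before it, motifs found in 3.44% and 8.3% of all windows. In the Tlr6 window 2 overlapping matches to the interferon core began 116 and 110 bases before the start, on the opposite strand. The Tlr2 window held 1 match to the Rbpj core on the opposite strand, 167 bases before the start, a core found in 25.6% of windows. Over the 9 windows, the Rbpj core was matched in 3 (Tlr2, Tlr9 and the second of Tlr6), the gamma-activated core in 3 (Myd88, 1 of Tlr1 and the second of Tlr6), the interferon core in 2 and the NF-kappaB core in 1. The Spi1 core, present in 28.3% of windows, was matched in 2 of the 9 windows, 1 of Tlr1 and that of Tlr9. A match describes letters in a window and shows no binding.

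The arrays had similar distributions, with median intensities of 71.6 to 79.2. Ncstn itself was lower in Ncstn KO, at log2 intensities of 7.58 and 7.91 in Ncstn KO replicates 1 and 2, against 9.05 and 8.98 in WT replicates 1 and 2. The sexes of the labels matched Xist and 3 Y-linked genes on all 4 arrays. On the female arrays the Y-linked probe sets lay at 2.18 to 3.50, the level these probe sets read where the gene is not present. Xist lay at 4.88 in the Ncstn KO male and 6.09 in the WT male, so the lowest level read can differ between probe sets. Of the sort markers, Kit lay at 11.7 and 11.7 in Ncstn KO and at 11.9 and 11.6 in WT. Ly6a, the gene of Sca1, was not among the 18193 genes. Cd34 and Flt3, which are not part of the LSK definition given above, were also bright. Among markers of the lineages removed by the sort, Cd3e lay at 4.55 to 5.14 and Itgam at 4.05 to 5.77 over the 4 arrays. Cd5 lay at 5.69 to 6.34 and Cd8a at 5.21 to 7.07. Genes of mature myeloid cells were bright on every array, with the neutrophil marker S100a9 at 13.8 to 13.9. The monocyte and macrophage marker Lyz2 lay at 12.9 to 13.2. The purity of the sort was not tested. Cd4 lay at 8.55 and 8.97 in Ncstn KO, against 7.89 and 8.45 in WT, and Ptprc, a gene of all leukocytes, at 11.6 to 12.1 over the 4 arrays. The hybridization controls, which are bacterial and phage transcripts added during processing, were brighter in Ncstn KO by 0.195 on the log2 scale. The log2 difference between the 3′ and 5′ actin probe sets, a sign of RNA quality, was 1.02 and 0.94 in Ncstn KO, against 0.89 and 0.79 in WT, and its part in the results was not tested. Differences below are log2 intensity in Ncstn KO minus that in WT, with the standard error (SE) of a limma fit over all 18193 genes and n = 2 per group, and the number of arrays limits their precision.

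No toll-like receptor, nor Cd14 or Myd88, differed between Ncstn KO and WT beyond the threshold of an adjusted p of 0.05. Limma called 0 of the 10 genes, as it called 0 of all 18193 (0%). At an unadjusted p under 0.05 there were 3 of the 10, Cd14 and Tlr2 among the higher and Tlr5 among the lower genes, where 4.96% of all genes were higher and 1.84% lower at that level. Both Ncstn KO arrays lay above both WT arrays for 5 genes (Tlr1, Tlr2, Tlr6, Cd14 and Myd88) and below them for 2 (Tlr5 and Tlr9), against 21.3% and 12.8% of all genes. The difference was above 0 for 5 of the 10, against 55.8% of all genes. Differences ran from -0.54 to 1.10 with a median of 0.06, beside a median of 0.02 over all genes. Scaling the arrays to the hybridization controls turned the sign of that median (-0.13) and of Tlr1 (-0.01). With the replicate number as a block, 1 of the 10 genes had an unadjusted p under 0.05, a setting where the share of all genes was not counted. With 1 array left out, the median of the 10 genes ran from 0.072 to 0.22.

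**Figure D1:**
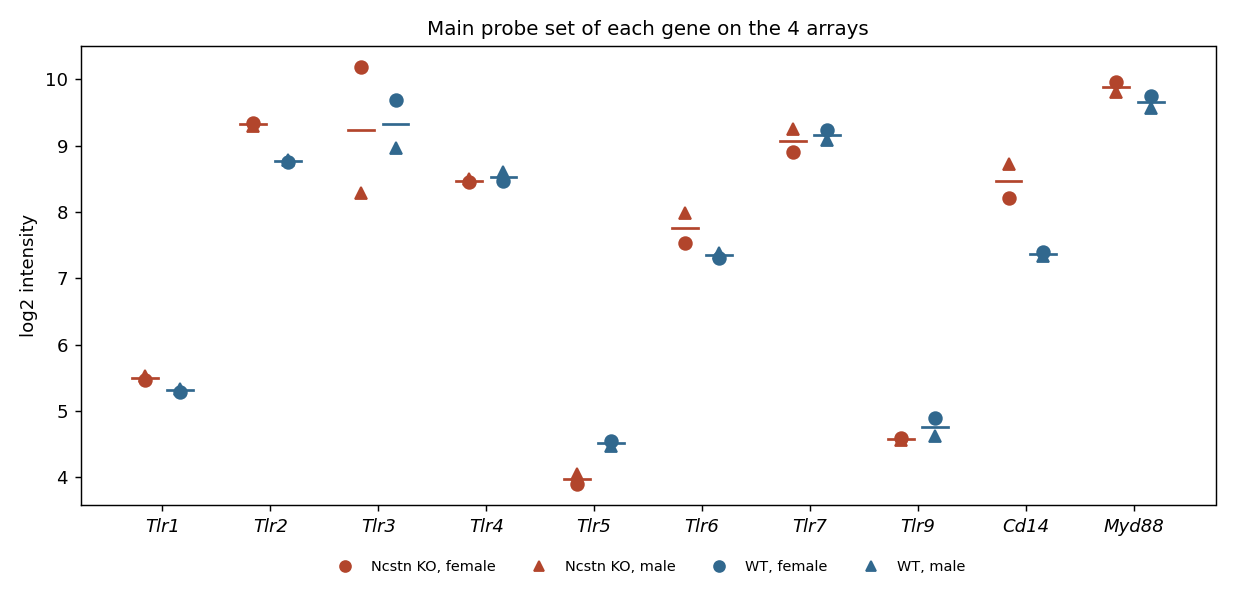
Log2 intensity of the main probe set of each of the 10 genes, with circles for females, triangles for males and a short line at the mean of each group (Ncstn KO left of WT for each gene). Cd14 and Tlr2 lie higher on both Ncstn KO arrays, Tlr5 lies lower, and the Tlr3 values of each group are split between a high female and a low male.

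Cd14, the surface co-receptor that hands lipopolysaccharide to Tlr4 and is best known from monocytes, had the largest difference of the 10. Its log2 intensity was 8.22 and 8.72 in Ncstn KO replicates 1 and 2, against 7.34 and 7.40 in WT replicates 1 and 2. Both Ncstn KO arrays stood clear of both WT arrays, and the gap between the groups exceeded the spread within either. On the linear scale the intensities were 297.8 and 421.2 in Ncstn KO and 162.2 and 169.2 in WT. The difference was 1.10 (SE 0.25), or 2.14-fold, with an unadjusted p of 0.00485 and a limma adjusted p of 0.405. It was 0.82 within the female pair and 1.38 within the male pair. A difference of at least 2-fold with both arrays above WT was seen in 1.19% of all genes.

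Markers of monocytes and macrophages lay higher in Ncstn KO alongside Cd14. Of 10 other monocyte and macrophage markers measured, 9 lay above WT, against 55.8% of all genes, and 7 had both Ncstn KO arrays above both WT arrays, against 21.3%. Their median difference was 0.80, with 0 past the adjusted threshold and 6 higher at an unadjusted p under 0.05, against 4.96% of all genes. Their summed linear intensity was 22113 and 21328 in Ncstn KO, against 16151 and 16795 in WT. Their brightest members had smaller differences than that median, with 0.05 for Lyz2, 0.32 for Ctss and 0.43 for Mpeg1. The largest differences, named after their values were seen, were 1.64 for F13a1, 1.498 for Ccr2 and 1.37 for Fcgr1, each with separate arrays and each above that of Cd14. Itgam, the gene of a myeloid antigen used in lineage depletion, also lay higher, at 5.45 and 5.77 in Ncstn KO, against 4.05 and 5.02 in WT (1.07, SE 0.36, limma adjusted p = 0.628). No array reads 0, and the dimmest markers were Adgre1, at 5.79 and 6.90 in Ncstn KO against 5.00 and 5.77 in WT, and Cx3cr1, at 5.88 and 5.89 in Ncstn KO against 6.20 and 5.79 in WT. All 10 measured neutrophil markers also lay above WT, with a median of 0.40 and 3 of them at an unadjusted p under 0.05, although only 5 did without Ncstn KO replicate 2 (median 0.06) and 5 without WT replicate 2 (median 0.08). In 6 of these 10 both males lay above both females, an order seen in 11.5% of all genes. Leaving out 1 array leaves the sexes unequal between the groups, and the part of sex was not tested. The summed intensity of the neutrophil markers overlapped between the groups. It was 49294 in the Ncstn KO female and 44097 in the WT female, and 66764 in the Ncstn KO male and 55362 in the WT male. Within each sex it was thus higher in Ncstn KO. The brightest neutrophil markers were S100a9, S100a8 and Camp. The part of these cell types in the Cd14 difference was not tested, and in such bulk samples more cells of a type and more RNA per cell cannot be told apart.

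Tlr2, which pairs with Tlr1 or Tlr6 to sense bacterial lipopeptides, lay higher on both Ncstn KO arrays. It lay at 9.34 and 9.30 in Ncstn KO, against 8.79 and 8.75 in WT. The arrays of each group were nearly level, with SDs of 0.03 in Ncstn KO and 0.03 in WT (n = 2 each). The difference was 0.55 (SE 0.17), or 1.47-fold, with an unadjusted p of 0.0183 and a limma adjusted p of 0.595. Its size was nearly equal in the female pair (0.59) and the male pair (0.52).

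Both partners of Tlr2 also lay higher on both Ncstn KO arrays, by smaller amounts. Tlr6 lay at 7.54 and 7.99 in Ncstn KO, against 7.39 and 7.31 in WT, a difference of 0.41 (SE 0.26, limma adjusted p = 0.89). The Ncstn KO arrays themselves differed by more than the female pair, in which the difference was 0.22, and without Ncstn KO replicate 2 it was 0.18. Tlr1, a neighbour of Tlr6 on chromosome 5, lay at 5.47 and 5.53 in Ncstn KO, against 5.33 and 5.29 in WT. Its difference of 0.19 (SE 0.22, limma adjusted p = 0.973) was of about the size of the offset in the hybridization controls. Myd88, the shared adaptor, lay at 9.96 and 9.81 in Ncstn KO, against 9.56 and 9.75 in WT. The groups were separate but close, with a difference of 0.23 (SE 0.16, limma adjusted p = 0.916), alike in the female (0.22) and male (0.25) pairs. It was 0.14 without WT replicate 1 and 0.039 after scaling to the hybridization controls.

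Tlr4, the lipopolysaccharide receptor, had 4 probe sets that gave different directions. The brightest, 1418162_at, lay at 8.45 and 8.49 in Ncstn KO, against 8.60 and 8.47 in WT, so the groups overlapped and the difference was -0.06 (SE 0.20, limma adjusted p = 0.997). The probe set 1418163_at, designed on the same transcript accession, lay at 7.61 and 7.80 in Ncstn KO, against 7.46 and 7.35 in WT, a difference of 0.30 with separate arrays. The remaining pair, 1442827_at and 1430695_at, was dim, with values of 4.65 to 5.06 and 2.99 to 3.24 over the 4 arrays and differences of 0.16 and 0.05. The mean of the 4 probe sets gave 0.11, so the sign for Tlr4 depended on the probe set.

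Tlr5, the flagellin receptor, was the gene among the 10 with the lowest Ncstn KO values relative to WT. It lay at 3.89 and 4.05 in Ncstn KO, against 4.48 and 4.55 in WT. The groups were separate, with a difference of -0.54 (SE 0.19, unadjusted p = 0.0283, limma adjusted p = 0.651), and both pairs had the same sign (-0.66 in females and -0.43 in males). The probe set was among the dimmest of the 10 genes, at linear intensities of 14.9 and 16.6 in Ncstn KO and 22.3 and 23.5 in WT, where signal over background is not known. With 16 added to every intensity before taking log2, the difference was -0.29.

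**Figure D2:**
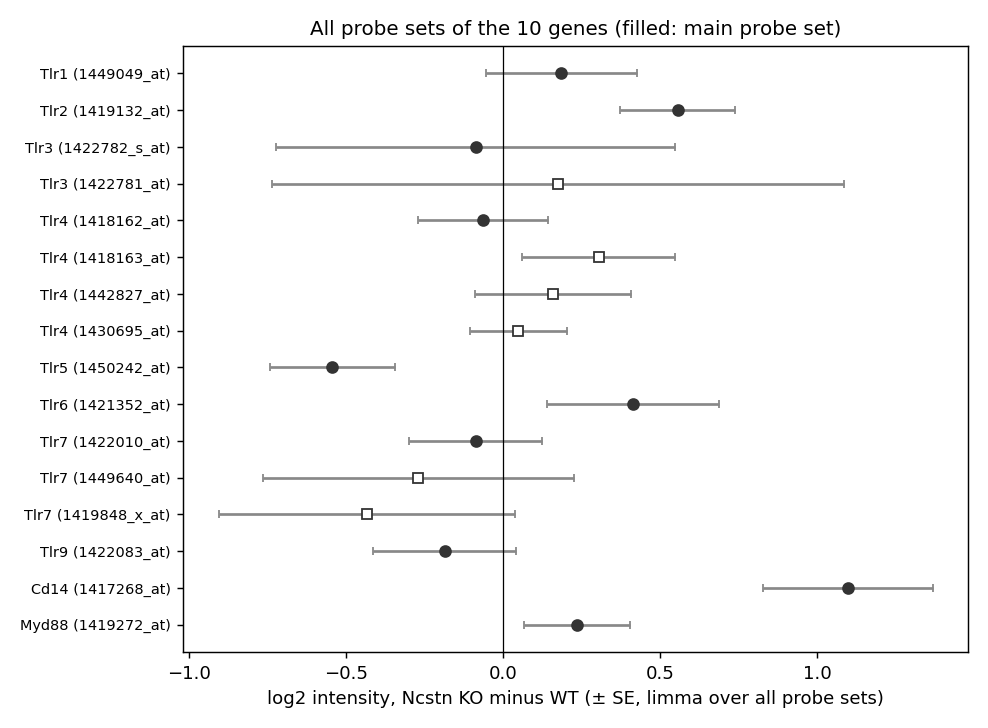
Log2 intensity in Ncstn KO minus WT for all 16 probe sets of the 10 genes, with bars of 1 SE from a limma fit over all probe sets; filled circles are main probe sets and open squares the others. Cd14, Tlr2 and Tlr5 lie farthest from 0 relative to their error, the Tlr4 probe sets fall on both sides of 0, and the Tlr3 probe sets have the widest bars.

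Tlr3, the endosomal receptor for double-stranded RNA, differed more between animals of a group than between the groups. The probe set 1422782_s_at lay at 10.19 in the female and 8.28 in the male of the Ncstn KO group, against 9.68 in the female and 8.96 in the male of the WT group. Both females thus lay above both males, and the Ncstn KO values enclosed the WT values. On the linear scale the intensities were 1167 in the Ncstn KO female and 311.6 in the Ncstn KO male, against 822.3 in the WT female and 499.5 in the WT male. The difference between genotypes was -0.09 (SE 0.61, limma adjusted p = 0.9996), with an SD of 1.35 in Ncstn KO and 0.51 in WT. It was 0.51 in the female pair and -0.68 in the male pair, so the pairs had opposite signs, as they had in 44.3% of all genes. Leaving out single arrays moved it between -1.04 without Ncstn KO replicate 1 and 0.87 without Ncstn KO replicate 2.

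The second Tlr3 probe set, 1422781_at, ordered the 4 animals in the same way. It lay at 7.25 in the female and 4.52 in the male of the Ncstn KO group, against 6.24 in the female and 5.19 in the male of the WT group. Its genotype difference was 0.17, with opposite signs in the female (1.02) and male (-0.67) pairs. Both probe sets were designed on the same Tlr3 accession, so they are not independent measures of the animals.

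A comparison of females with males, chosen after these values were seen, was fitted with genotype and sex as terms. Tlr3 averaged 9.94 in females and 8.62 in males, a difference of 1.31 (SE 0.32), or 2.48-fold, with an unadjusted p of 0.0112 and a limma adjusted p of 0.574. At an unadjusted p under 0.05, 8.58% of all genes differed by sex, and 5.53% were higher in females at that level. An adjusted p under 0.05 was reached by 4 genes (0.0220%). Both females lay above both males in 29.0% of all genes, so an order by sex is common on these arrays. After each array was centred on its median over all probe sets, Tlr3 passed. Its difference was then 1.40, with a limma adjusted p of 0.0383, as 1 of 58 genes that passed. Those medians were 6.16 and 6.23 in the Ncstn KO and WT females, against 6.31 and 6.26 in the males. This centring thus raised the females relative to the males. Medians over the tested genes, not used for centring, were 8.11 and 8.04 in the females, against 8.09 and 7.99 in the males. Of the other 9 genes none had an unadjusted p under 0.05 for sex; the smallest was 0.281, for Myd88. Each sex had 1 animal per genotype, and sex cannot be told apart from other differences between these animals.

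By the root mean square distance between profiles centred on their mean over the 4 arrays, the genes most like Tlr3 were Ammecr1 (0.06 log2 units), Sowaha (0.10) and Rpp25 (0.11) of 18192 compared. Ammecr1 lay at 7.18 in the female and 5.38 in the male of the Ncstn KO group, against 6.84 in the female and 6.07 in the male of the WT group. For Cd14 the nearest genes were Ndrg2 (0.03), Pirb (0.05) and Ahnak (0.07). With 4 arrays many genes share a profile, and the distance is a description.

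Tlr7, a receptor for single-stranded RNA encoded on the X chromosome, had 3 probe sets. The main one, 1422010_at, lay at 8.90 and 9.25 in Ncstn KO, against 9.09 and 9.24 in WT, a difference of -0.09 (SE 0.20, limma adjusted p = 0.991). The groups overlapped, with -0.33 in the female pair and 0.16 in the male pair. The dimmer probe sets 1449640_at and 1419848_x_at, designed on one and the same accession, were low in the Ncstn KO female at 6.31 and 6.19, against 7.35 and 7.29 in the WT female. In the Ncstn KO male they lay at 7.74 and 7.52, against 7.24 and 7.29 in the WT male. A single animal was therefore low on both, by 1.04 and 1.10 relative to the WT female.

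**Figure D3:**
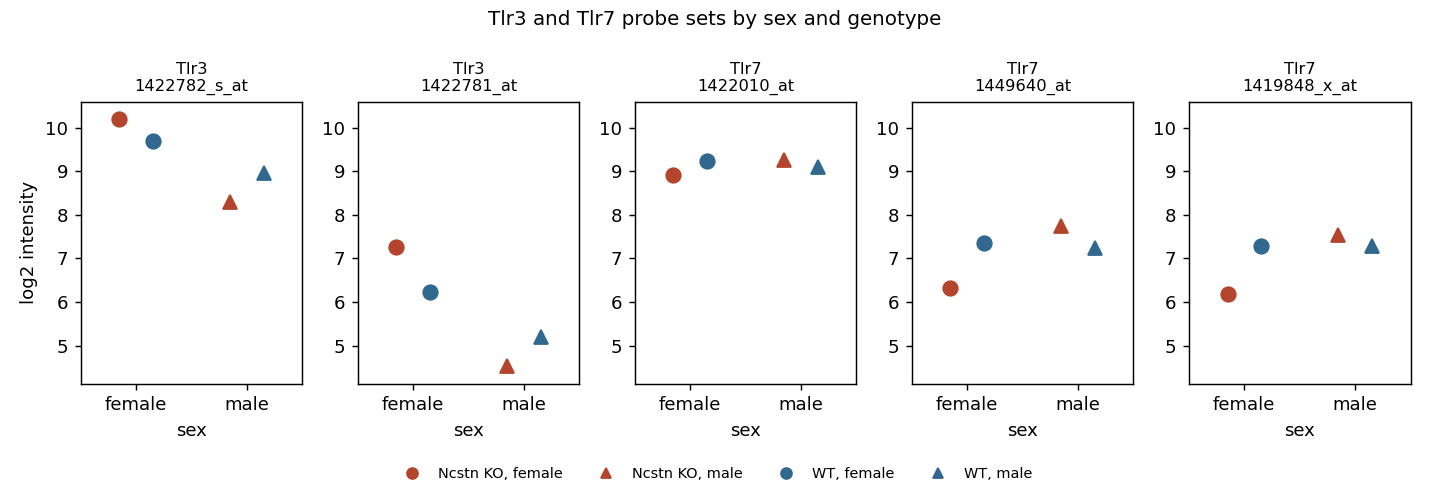
Log2 intensity of the 2 Tlr3 and 3 Tlr7 probe sets by sex, with Ncstn KO left of WT within each sex and 1 animal per point. Both Tlr3 probe sets are higher in both females than in both males, while the Ncstn KO female is the lowest animal on all 3 Tlr7 probe sets.

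Tlr9, the receptor for unmethylated DNA, lay at 4.59 and 4.56 in Ncstn KO, against 4.63 and 4.90 in WT. The groups were separate by a margin smaller than the gap between the WT arrays, and the difference was -0.19 (SE 0.22, limma adjusted p = 0.973). Without WT replicate 2 it was -0.05. Tlr1, Tlr5 and Tlr9 were dim, with means of 5.40, 4.25 and 4.67, and the error of small differences at such low signal is not known. Tlr6 and Cd14, with means of 7.56 and 7.92, lay nearer to the median over genes of 8.04, though also below it.

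Of the 3 remaining toll-like receptors measured, Tlr12 and Tlr13 lay higher on both Ncstn KO arrays and Tlr8 did not. Of Tlr8, Tlr12 and Tlr13, 0 passed an adjusted p of 0.05 and 2 were higher at an unadjusted p under 0.05, against 4.96% of all genes. Tlr12, which senses profilin of protozoa in mice, lay at 8.49 and 8.42 in Ncstn KO, against 7.34 and 6.99 in WT, a difference of 1.29 (SE 0.24, limma adjusted p = 0.29). Its difference exceeded that of any of the 10 genes. Tlr13, a receptor for bacterial ribosomal RNA in mice, lay at 7.24 and 6.34 in Ncstn KO, against 5.27 and 5.91 in WT (1.20, SE 0.39, limma adjusted p = 0.615). Tlr8 lay at 2.97 to 3.36 over the 4 arrays, in the range read for Y-linked genes on female arrays, and the groups overlapped.

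A list of accessory and chaperone proteins of toll-like receptors and of the receptor homolog Cd180 included several with high Ncstn KO values. Of 10 measured, 0 passed the adjusted threshold, 3 were higher and 0 lower at an unadjusted p under 0.05 (4.96% and 1.84% of all genes), and the median difference was 0.13 (0.02 without Ncstn KO replicate 1 and 0.25 without WT replicate 2). Ly86, the partner of the receptor homolog Cd180, lay at 10.28 and 9.84 in Ncstn KO, against 8.80 and 9.23 in WT (1.04, SE 0.24, limma adjusted p = 0.391). Lbp, which carries lipopolysaccharide to Cd14, lay at 11.15 and 11.20 in Ncstn KO, against 9.98 and 10.51 in WT (0.93, SE 0.19, limma adjusted p = 0.351). Unc93b1, the chaperone that takes Tlr3, Tlr7 and Tlr9 to endosomes, lay at 9.23 and 9.42 in Ncstn KO, against 8.63 and 8.79 in WT (0.62, SE 0.19, limma adjusted p = 0.59). Both Ncstn KO arrays lay above both WT arrays in 4 of the 10 measured here, against 21.3% of all genes. These 4, named for their small unadjusted p, were the 3 above and Cnpy4, a chaperone of surface receptors, with a smaller difference of 0.16.

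Adaptors and kinases below the receptors showed small differences. Of 17 measured, 0 had an unadjusted p under 0.05, and the median was 0.09. Above WT lay 13 of the 17, against 55.8% of all genes, and below WT 4. Tirap, the adaptor that links Tlr2 and Tlr4 to Myd88, lay at 9.90 and 9.60 in Ncstn KO, against 10.06 and 10.24 in WT (-0.40, SE 0.17, limma adjusted p = 0.769). The ubiquitin ligase genes Traf6 and Peli1 and the kinase partner gene Tab1 differed by 0.25, 0.20 and 0.34. Ticam1, named here for its role as the adaptor of Tlr3, lay at 8.09 in the female and 7.31 in the male of the Ncstn KO group, against 7.68 in the female and 7.26 in the male of the WT group. Both females were thus above both males for Ticam1 as for Tlr3, an order seen in 29.0% of all genes. Among the 17 adaptors and kinases it was seen in 2, and the reverse order in 4, against 11.5% of all genes for the reverse order.

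Among 12 inhibitors of the pathway, 0 passed and 1 was higher at an unadjusted p under 0.05, against 4.96% of all genes. This was Irak3, a kinase homolog that blocks signalling from Myd88, at 10.30 and 10.30 in Ncstn KO, against 9.87 and 9.55 in WT (0.59, SE 0.17, limma adjusted p = 0.544). The NF-kappaB inhibitor gene Nfkbia, the receptor homolog gene Sigirr and the deubiquitinase gene Cyld differed by 0.19, 0.29 and -0.18. Of 10 transcription factors, 0 had an unadjusted p under 0.05 and 5 lay above WT, against 55.8% of all genes. Differences were 0.60 for Relb and 0.20 for Nfkb2, against -0.72 for Rel and -0.39 for Irf7.

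Genes induced by the pathway had no common direction, with 10 of 18 above WT, against 55.8% of all genes. Their median was 0.06, with 0 past the adjusted threshold. The 2 with an unadjusted p under 0.05 were lower in Ncstn KO, against 1.84% of all genes. Il6, an inflammatory cytokine gene, lay at 3.38 and 3.01 in Ncstn KO, against 4.14 and 4.35 in WT (-1.05, SE 0.20, limma adjusted p = 0.308), a dim range on every array. Ptgs2, the inducible cyclooxygenase gene, lay at 7.51 and 7.79 in Ncstn KO, against 8.65 and 8.49 in WT (-0.92, SE 0.22, limma adjusted p = 0.443). The chemokine gene Ccl5 and the cytokine gene Il1b differed by 0.68 and -0.65.

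Genes of the cytosolic response to double-stranded RNA, whose sensors with Tlr3 respond to polyIC, mostly lay lower in Ncstn KO. The list held sensors and also the adaptor gene Mavs, the ubiquitin ligase gene Trim25 and Zbp1. Mavs, at 0.03, was the gene not below WT, and whether the pattern is particular to these genes was not tested. Of 10 measured, 9 lay below WT, whereas 55.8% of all genes lay above it. In 8 of these 9 the Ncstn KO arrays were both below the WT arrays, against 12.8% of all genes. The median of the 10 was -0.49. At an unadjusted p under 0.05 there were 6, all lower, against 1.84% of all genes, and 0 passed the adjusted threshold. Ifih1, the helicase that senses long double-stranded RNA, lay at 9.14 and 9.11 in Ncstn KO, against 9.71 and 9.68 in WT (-0.57, SE 0.16, limma adjusted p = 0.544). Eif2ak2, the RNA-dependent kinase, lay at 10.68 and 10.56 in Ncstn KO, against 11.16 and 10.97 in WT (-0.45, SE 0.13, limma adjusted p = 0.55). Oas2 and Oas1a, which make the activator of a ribonuclease, differed by -1.17 and -0.65. The list's median stayed between -0.53 and -0.47 when single arrays were left out. Tlr3 was not ordered by genotype in this way.

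**Figure D4:**
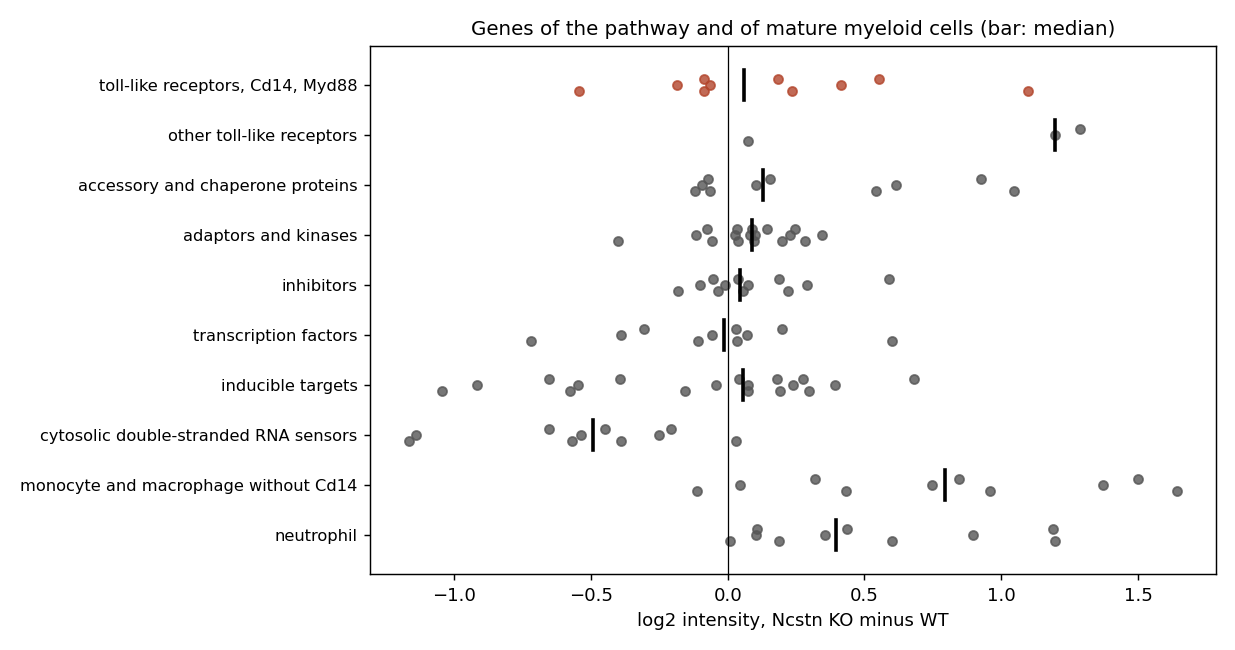
Log2 intensity in Ncstn KO minus WT for the 10 genes (top row), the other lists of the pathway and 2 lists of mature myeloid markers, with 1 point per gene and a black bar at the median of each list. Medians lie at -0.49 for the list of cytosolic sensors and their partners and 0.80 for the monocyte and macrophage markers, beside 0.06 for the 10 genes.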

How the data were processed

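RNA of sorted LSK cells from 2 Ncstn KO and 2 WT mice was measured on Affymetrix arrays, from 5 ng of total RNA amplified with NuGEN Ovation reagents, per the labels' protocols. The authors deposited linear intensities per probe set, from 3.32 to 23642.6, summarised with RMA (version not stated) as the submitters' processing notes say, and these were turned to log2 for all fits. Of 45101 probe sets, 64 controls were left out and 34945 named 1 gene in the platform annotation, 932 several and 9160 were unnamed here, which left 18193 genes by the probe set of highest mean. No background values were used, so signal over background is unknown. The replicates are separate mice by sex.

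The test was limma 3.58.1 under R 4.3.3, with lmFit and trended eBayes, two-sided p-values and Benjamini-Hochberg adjustment over all genes at 0.05, and it was checked on simulated data. With 2 arrays against 2, an exact permutation test of a single gene cannot go below 0.333. The 10 genes, the gene lists and the tests were chosen with earlier results of these data known. Of each pathway list the up to 4 genes of smallest unadjusted p are named, and of the monocyte and neutrophil lists the 3 brightest. Ticam1 was added for its role, and the dimmest and most different monocyte markers, Itgam and Ms4a1 after their values were seen. Counts are over the members measured. The comparison of the sexes, and lists without single arrays, were added after seeing the data. Alternatives were scaling, an offset of 16, a dim filter, probe set choice, variance model, sex, replicate block and leaving out arrays. Promoter windows came from RefSeq (GRCm38.p6). Figures used matplotlib 3.10.9.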

Additional observations from a re-analysis of the deposited data

Results flagged for a closer look

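The difference between Ncstn KO and WT had opposite signs in the 2 sexes for 2 of the 10 genes, as it did for 44.3% of all genes. For Tlr3 it was 0.51 in the female pair and -0.68 in the male pair, and the second Tlr3 probe set gave 1.02 and -0.67. For Tlr7 it was -0.33 in the female pair and 0.16 in the male pair. With 1 animal per sex and genotype, the difference between the pairs was not tested.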

How the results depend on the processing

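None of the 10 genes passed an adjusted p of 0.05 between Ncstn KO and WT under any of the 15 alternatives (the dim filter kept 5 of them), the smallest adjusted p being 0.103, for Cd14 without Ncstn KO replicate 1. Cd14 ran from 0.85 to 1.35, Tlr2 from 0.36 to 0.57 and Tlr5 from -0.74 to -0.29, and Tlr6, Tlr9 and Myd88 also kept their signs. Over all genes the number past the threshold was 0, but 3 after repeated quantile normalization, 62 after centring each array on its median, 2 among genes brighter than the median, and 0 to 27 with 1 array left out, when the lone array of a group is assumed to vary like the other group. Scaling to the hybridization controls turned Tlr1 to -0.010 and the median of the 10 genes to -0.13. That median was -0.064 over the 5 genes brighter than the median and 0.15 with the mean of all probe sets, which also turned Tlr3 to 0.043 and Tlr4 to 0.11; with 1 array left out it ran from 0.072 to 0.22. With 1 array left out Tlr3 ran from -1.04 to 0.87, Tlr7 from -0.26 to 0.085 and Tlr4 from -0.13 to 0.00069. The cause of these shifts was not tested. The difference of Tlr3 between females and males was 1.40 after centring each array on its median over all probe sets, where it passed (limma adjusted p = 0.0383). It ran from 0.97 to 1.65 with 1 array left out. Same-numbered arrays of the 2 groups share only a number: their deviations from the group means correlated at -0.24 across genes, which are not independent replicates. The replicate block called 0 genes, as without it, with a Tlr3 difference of -0.09. Arrays crossed by number, which pair the sexes, also gave 0 called genes.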

Other observations

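Genes of 2 further cell types that could be present in the sort had no common direction. Of 8 dendritic cell markers measured, 5 lay above WT, against 55.8% of all genes. Their median difference was 0.14, and 0 had an unadjusted p under 0.05. Of 7 B cell markers 5 lay above WT, with a median of 0.30. At an unadjusted p under 0.05, 1 was lower, against 1.84% of all genes. This was Ms4a1, which encodes CD20, at 5.74 and 5.74 in Ncstn KO, against 7.79 and 7.94 in WT (-2.12, SE 0.24, limma adjusted p = 0.161).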
